A study of Capra hircus with 4 samples.

Results

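Cells that carried RNA of cell cycle genes were picked out of the dissociated goat pancreas and described by the lineage they belong to. A barcode entered the pool with at least 3500 unique molecular identifiers (UMIs, the counted RNA molecules) and at least 500 genes. It was called a cycling cell when at least 3 of the 8 genes MKI67, TOP2A, CENPF, UBE2C, CDK1, BIRC5, CCNB1 and TPX2 had a UMI. The rule found 688 cycling cells among 16177 barcodes, or 4.25%, and the remaining 15489 barcodes are called other cells. Lineage was set by what a cell made. A cell was endocrine when INS, PPY, GCG or SST held at least 3% of its UMIs, and acinar when PRSS2, CLPS, SYCN, CTRC and CEL together held at least 5%. It was mesenchymal with at least 1 UMI of PDGFRA, and immune with at least 1 UMI of PTPRC. Cells that met exactly 1 of these rules carry that name.

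The pancreases came from Liuyang black goats, 2 at 6 months of age (ruminating, DY) and 2 at 10 days of age (not yet ruminating, XY, the study's control). All 4 were female twins with no transgene or treatment, per the labels' protocols, and the tissue was digested with enzymes and cleared of red and dead cells before capture. The suffix of each barcode gives its library, 1 to 4, but the labels do not say which suffix is which goat. No library was therefore given an age, the ages were not compared, and every value below belongs to a numbered library.

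A dividing cell copies its DNA in S phase and prepares for division in G2. In mitosis it condenses its chromosomes and pulls their copies apart. Each step draws on its own set of genes. Replication genes are switched on by E2F factors at the start of S phase, whereas the genes of the spindle and of chromosome separation peak later, in G2 and mitosis. All 8 genes of the rule belong mainly to the later wave, so cells early in S phase can fall outside it. MKI67 encodes a coat protein of mitotic chromosomes, TOP2A untangles DNA, CENPF binds kinetochores, and UBE2C helps the anaphase-promoting complex to destroy cyclin. CDK1 and its cyclin CCNB1 drive entry into mitosis, and BIRC5 and TPX2 serve the chromosomal passenger complex and the spindle. In the young pancreas of other mammals both acinar and islet cells are known to multiply by division of cells that already make enzymes or hormones.

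The pool held 2819, 5769, 4551 and 3038 barcodes in libraries 1 to 4, at median depths of 6331, 6147, 7570 and 8271 UMIs. No barcode sequence marked a cycling cell in more than 1 library. In the whole pool 29 sequences were shared, and sharing between cycling and other cells was not counted. Cycling cells were the deeper cells of each library, with median UMI counts 2.12, 2.48, 1.99 and 1.29 times those of other cells. Depth helps a cell to meet the rule, so each share is also given after every cell was thinned at random to 3500 UMIs. Cells that met more than 1 lineage rule made up 7.70% of the cycling cells and 4.89% of other cells. The 5% of cells with the highest doublet scores of each library took in 10.2% of the cycling cells and 4.78% of other cells.

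Cells at the edge of the rule were weakly marked. The 102 cells with exactly 3 of the 8 genes carried a median of 5 UMIs of these genes, and the 218 cells just outside it, with 2 genes, carried a median of 2. The 187 cells with all 8 genes carried a median of 84. MKI67 was seen in 71.6% of the cells with 3 genes and CCNB1 in 10.8%.

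The members were chosen by their UMIs of the 8 genes, so the levels of those genes are a description and support nothing. MKI67 stood at 494, 235, 316 and 919 CPM (UMI counts scaled to one common total) in the cycling cells of libraries 1 to 4, against 0.0361, 1.62, 4.25 and 0.465 CPM in other cells. It was seen in 94.7%, 89.6%, 87.7% and 94.7% of cycling cells. Among immune cells with at least 3 neutrophil genes, a type whose mature cells do not divide, MKI67 was seen in 5 of 388 cells in library 4 (1.29%, median depth 8282 UMIs) and 2 of 21 in library 3. Cycling cells were not left out of this set, and the 2 cells of library 3 together held 22 UMIs of MKI67. TOP2A reached 90.7 CPM in the near-empty barcodes of library 3 (10 to 100 UMIs), the highest of the 4 libraries, so some free RNA of cycle genes was present there.

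Cycling cells were spread very unevenly over the libraries. Library 3 held 496 of them, 10.9% of its cells (95% exact binomial interval 10.0 to 11.8%), and library 2 held 154, or 2.67% (2.27 to 3.12%). Libraries 1 and 4 held 19 each, or 0.674% (0.406 to 1.05%) and 0.625% (0.377 to 0.975%). All intervals here cover counting error only. After thinning the shares were 0.568%, 1.16%, 6.75% and 0.494% in libraries 1 to 4, and library 3 remained the highest. The libraries differ in animal, digestion and cell mix, and what sets the difference cannot be told apart here.

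Acinar cells, which make the digestive enzymes, gave 338 of the 688 cycling cells. In library 3, 241 of 855 acinar cells were cycling, or 28.2% (25.2 to 31.3%), and in library 2 it was 97 of 1302, or 7.45% (6.08 to 9.01%). No acinar cell was cycling among 377 in library 1, which allows a share of up to 0.796% (3 counts over the cells), or among 66 in library 4, which allows up to 4.55%. Thinning brought the acinar shares down to 12.5% in library 3 and 2.07% in library 2. After thinning, 17.9% of the immune cells of library 3 were cycling, above its acinar cells.

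Endocrine cells gave 125 cycling cells, 111 of 1080 in library 3 (10.3%, 8.53 to 12.2%) and 14 of 943 in library 2 (1.48%). None was found among 683 endocrine cells of library 1 (up to 0.439%) or 796 of library 4 (up to 0.377%). After thinning the share in library 3 was 8.70%. Within library 3 the share differed by hormone. Of cells led by GCG, the glucagon gene of alpha cells, 24 of 117 were cycling, or 20.5% (13.6 to 29.0%). Of cells led by PPY, pancreatic polypeptide, it was 50 of 351, or 14.2% (10.8 to 18.3%). Of cells led by INS, insulin, it was 31 of 508, or 6.10% (4.18 to 8.55%), and of cells led by SST, somatostatin, 6 of 104, or 5.77% (2.15 to 12.1%). The order held after thinning for the 3 larger classes, at 17.1% for GCG, 11.7% for PPY and 5.31% for INS. Without likely doublets 18 cycling and 92 other GCG cells were left, 46 and 290 PPY cells, and 31 and 464 INS cells. The intervals of GCG and PPY cells overlap, and those of GCG and INS cells do not. In library 2 the counts were 0 of 73 GCG cells, 6 of 174 PPY cells and 6 of 623 INS cells, and cells with alpha cell markers below the 3% of the rule are counted there among the cells that met no rule.

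Mesenchymal cells had the lowest shares of cycling cells in libraries 2 and 3. In library 3, 25 of 1655 were cycling (1.51%), and 10 of 1606 (0.623%) once likely doublets were left out. In library 2 it was 5 of 1982, and none of 1040 in library 1 (up to 0.288%) or of 909 in library 4 (up to 0.330%) was. Immune cycling cells were found in all 4 libraries, with a single cell in library 2 that no longer counts when 4 genes are required. They numbered 16 of 190 in library 1 (8.42%, 4.89 to 13.3%), 1 of 56 in library 2, 19 of 95 in library 3 (12.5 to 29.5%) and 14 of 729 in library 4 (1.92%, 1.05 to 3.20%). Thinning left 16, 1, 17 and 10 of them. In libraries 1 and 4, immune cells made up 16 and 14 of the 19 cycling cells.

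**Figure D1:**
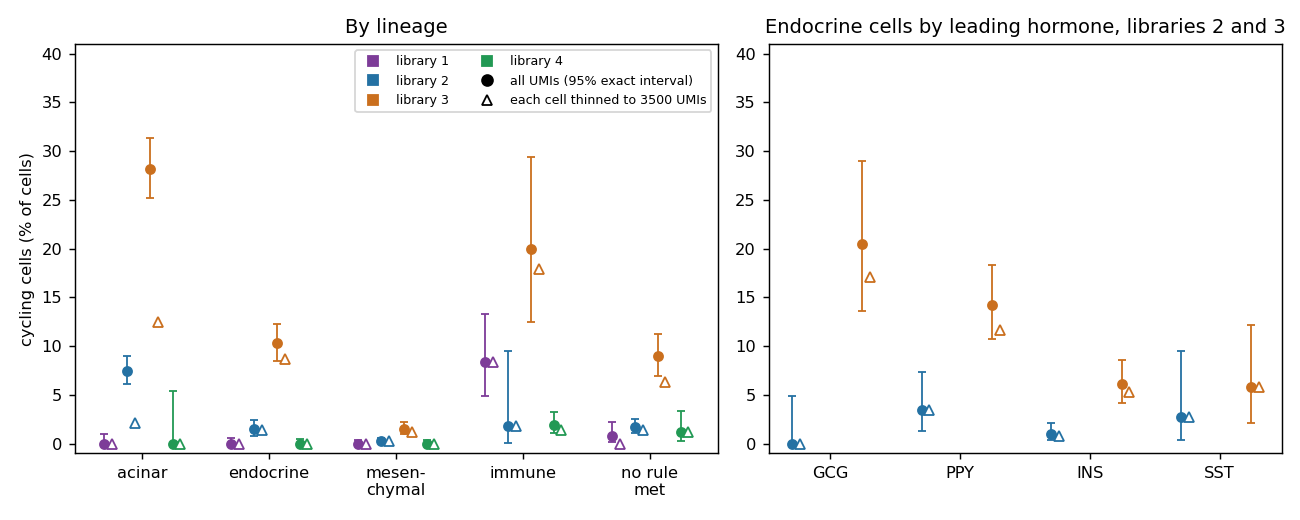
Share of cycling cells (% of cells) by lineage in each library (left) and by leading hormone in the endocrine cells of libraries 2 and 3 (right). Filled circles use all UMIs with 95% exact binomial intervals, open triangles use cells thinned to 3500 UMIs; acinar cells of library 3 stand at 28.2% and 12.5%, and GCG cells at 20.5% and 17.1%.

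Cycling acinar cells were weakly marked beside the cycling cells of every other lineage. The 8 genes together made up 644 CPM in cycling acinar cells of library 2 and 959.8 CPM in library 3. In cycling endocrine cells the sums were 9319 and 4709 CPM in the same libraries. They were 4273 CPM in mesenchymal cells of library 3, and 6161, 5546 and 6047 CPM in immune cells of libraries 1, 3 and 4. A cycling acinar cell carried a median of 12 and 16 UMIs of the 8 genes in libraries 2 and 3. In cycling endocrine cells the medians were 67 and 43. Median total depth was larger in cycling acinar cells (24397 and 21858 UMIs, against 10533 and 12812). Depth helps a cell to meet the rule, so weakly marked cells enter more readily among deep cells. After thinning, 27.8% and 44.4% of cycling acinar cells of libraries 2 and 3 still met the rule. Of cycling endocrine cells, 92.9% and 84.7% did. The part of depth in the weak marking was not tested. All 8 genes were seen in 9.28% and 14.9% of cycling acinar cells, and in 57.1% and 47.7% of cycling endocrine cells. Acinar members were spread over every number of genes from 3 to 8, whereas endocrine members piled up at 8. Other acinar cells held 10.6 and 34.7 CPM of the 8 genes in libraries 2 and 3, so the cycling cells lay far above them as the rule requires. The 5 enzymes of the rule held a median of 13.4% and 14.0% of the UMIs of a cycling acinar cell, and their part in the low level was not tested.

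**Figure D2:**
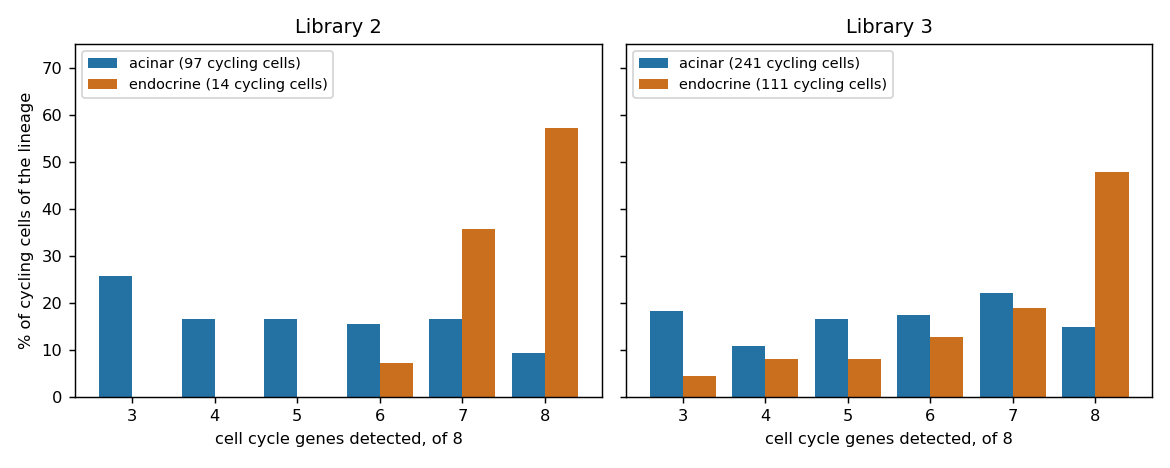
Percentage of the cycling cells of a lineage (y) with 3 to 8 of the 8 cell cycle genes detected (x), for acinar and endocrine cells of libraries 2 and 3. Endocrine bars peak at 8 genes (57.1% and 47.7%), where acinar bars stand at 9.28% and 14.9%.

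The mix of the 8 genes is described next and, like their level, rests on the genes of the rule. MKI67 gave 28.4% (26.3 to 30.5%) and 28.5% (27.3 to 29.7%) of their UMIs in cycling acinar cells of libraries 2 and 3. In cycling endocrine cells it gave 6.77% (5.50 to 8.23%) and 6.94% (6.37 to 7.55%). Cycling immune cells lay between, with 10.8%, 20.2% and 14.9% in libraries 1, 3 and 4, as did mesenchymal cells with 12.6% in library 3. UBE2C went the other way, with 12.3% and 7.49% in acinar and 22.4% and 16.6% in endocrine members of libraries 2 and 3. Members with all 8 genes, a choice made after seeing the data, gave a smaller gap between the lineages in each library. There MKI67 gave 27.9% and 24.9% in 9 and 36 acinar cells, against 6.97% and 6.92% in 8 and 53 endocrine cells. In near-empty barcodes MKI67 gave 20.6% (15.3 to 26.8%) of the UMIs of the 8 genes in library 2 and 7.83% (3.64 to 14.3%) in library 3. The interval of free RNA overlaps that of acinar members in library 2. In library 3 it overlaps that of endocrine members and not that of acinar members. The part of free RNA in the mix was not tested.

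**Figure D3:**
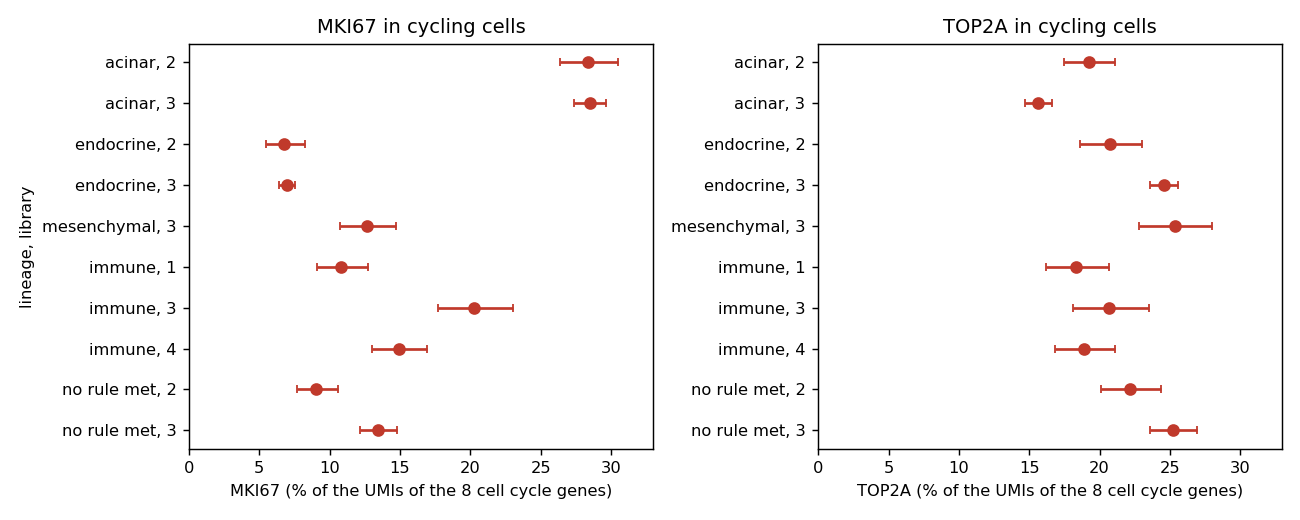
MKI67 (left) and TOP2A (right) as a percentage of the UMIs of the 8 cell cycle genes in cycling cells of each lineage and library; points are pooled cells with 95% exact binomial intervals. MKI67 stands near 28% in acinar cells and near 7% in endocrine cells of both libraries.

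Other genes of the cycle were then read in the same cells. UMIs were summed over the cycling and over the other cells of a library, and genes were called when log2(CPM + 1) differed by at least 1 the same way in every library used and the higher class held 20 counts or more. This scale understates the change of low genes. Libraries need 20 cycling cells, so libraries 2 and 3 were used, and other cells were weighted to the lineage mix of the cycling cells. Of 11310 genes measured, 441 (3.9%) were higher and 77 (0.681%) were lower in cycling cells. The median log2 ratio over the measured genes was 0.06 in library 2 and 0.14 in library 3. No p-value is given, because the same RNA chose the cells and no library could be placed in a group.

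Of 169 measured genes in 10 lists of cell cycle machinery that leave out the 8 genes of the rule, 148 were higher, and the genes of mitosis stood furthest out. Cells were picked by genes of the later wave, so the lead of mitosis genes over S-phase genes is a description and supports nothing. All 28 genes of spindle motors and cytokinesis were higher (median log2 ratio 4.32). PRC1, which bundles the central spindle, stood at 105 and 180.5 CPM in cycling cells of libraries 2 and 3, against 0.578 and 1.72 CPM in other cells. CKAP2, a spindle protein, and ASPM, which sits at the spindle poles, were higher by 5.99 and 5.72 on the log2 scale. All 25 kinetochore and checkpoint genes were higher (median 3.33), among them the motor CENPE (5.05) and NDC80 (4.97), which grips microtubules. So were all 18 genes of mitotic entry (median 3.84). CCNB2, a mitotic cyclin, stood at 74.9 and 73.9 CPM in cycling cells, against 1.04 and 2.05 CPM in other cells. AURKB, the kinase of the passenger complex, was higher by 4.78. Of 13 genes of condensin and cohesion 12 were higher (median 3.12), including PTTG1, the securin that guards sister chromatids (4.58).

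Genes of S phase were higher too, with lower medians. Of 23 genes of the replication fork and nucleotide supply 20 were higher (median 1.47). RRM2, a subunit of ribonucleotide reductase, stood at 22.8 and 69.2 CPM in cycling cells, against 1.13 and 4.74 CPM in other cells. PCNA, the sliding clamp, stood at 101 and 175 CPM against 19.1 and 36.7 CPM. Of 15 genes of origin licensing 11 were higher (median 1.38), led by DBF4 (2.36), the partner of the CDC7 kinase, and CDC45 (2.28), part of the helicase. MCM2, another helicase subunit, was not called, with 25.2 and 52.5 CPM against 15.6 and 30.9 CPM in other cells. All 13 genes of histone and chromatin supply (median 1.79) and all 12 of repair by homologous recombination (median 2.60) were higher, among them CENPA (5.00), the centromere's own histone.

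Of 11 genes in the G1 list (cyclins, kinases and related factors) 4 were higher over all lineages. The list median was 0.95, beside 0.10 for all genes measured. In endocrine cells of library 3, 10 of 13 were higher (median 1.84). The 4 were E2F8, E2F7, RBL1 and CCNE2, of which only CCNE2 encodes a cyclin and none a kinase. CCND1, cyclin D1, stood at 57.3 and 70.4 CPM in cycling cells and at 74.0 and 71.0 CPM in other cells, and was not called. Of 13 inhibitors and growth arrest genes 3 were higher: CDKN3 (4.71), CDKN2C (3.90) and CDKN2D (3.26). CDKN3 encodes a phosphatase that acts on CDKs, and the other two encode INK4 inhibitors of CDK4 and CDK6. Of 10 tubulins and their regulators 5 were higher, among them STMN1, a microtubule destabiliser, at 576 and 641 CPM against 41.2 and 92.1 CPM. Of 12 nuclear envelope and import genes 6 were higher, led by lamin B1, LMNB1 (2.79). None of 14 ribosome biogenesis, 12 glycolysis and 17 immediate early genes was called, where 3.9% of all genes were higher and 0.681% lower. In endocrine cells of library 3, 3 of 12, 2 of 11 and 2 of 15 of them were higher, beside 12.5% of all genes.

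Of the 77 genes lower in cycling cells 65 belong to none of the gene lists. Of 22 extracellular matrix genes 8 were lower, including DCN, decorin, at 108 and 149 CPM in cycling cells, against 391.6 and 349.8 CPM in other cells. MGP, a matrix inhibitor of calcification, stood at 337 and 351 CPM against 1097 and 1239 CPM. The growth factor gene IGF2 (-1.68) and the imprinted gene DLK1 (-1.64) were lower as well. RSPO3, which boosts WNT signals, and the chemokine CXCL12 were the 2 lowest (-2.07 and -1.84). Cells that met no lineage rule enter this comparison, and among them other cells carried far more stromal RNA than cycling cells: the 6 stromal markers summed to 2326 and 5803 CPM in cycling cells of libraries 2 and 3, against 40828 and 29951 CPM. The part of that gap in the lower calls was not tested. Within acinar cells none of 18 measured matrix genes was called, where 0.0612% of all genes measured were lower. The median log2 ratio of these 18 was -0.49, beside 0.15 for all genes measured in acinar cells. In endocrine cells of library 3, matched by leading hormone, 9 of 16 matrix genes were lower, beside 6.06% of all genes measured. A difference between the 2 lineages was not tested.

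In the acinar lineage the higher genes were in good part those of the cell cycle. Of 8176 genes measured in libraries 2 and 3, 216 (2.64%) were higher and 5 (0.0612%) were lower in the 97 and 241 cycling cells. The rule and the cycle lists hold 105 of the 216, and 101 are in no list. All 23 spindle genes and all 22 kinetochore genes measured were higher, with medians of 3.49 and 2.78. Of the S-phase genes, 8 of 20 fork genes and 3 of 13 licensing genes were higher. PCNA stood at 46.6 and 69.5 CPM in cycling acinar cells, against 16.8 and 32.5 CPM in other acinar cells. Of 12 enzymes 0 was called, with a median log2 ratio of -0.02 beside 0.15 for all genes measured. The acinar rule asks for 5 of these enzymes in both classes, so their levels are a description. The 5 enzymes of the rule held a median of 13.4% of UMIs in cycling acinar cells of library 2, against 13.1% in other acinar cells, and 14.0% against 15.0% in library 3. None of 7 acinar transcription factors was called, and PTF1A, the master factor of the lineage, stood at 31.8 and 23.6 CPM against 27.7 and 28.2 CPM. The 5 lower genes were CCL21, PLVAP, PECAM1, CDKN1A and DPYSL3. CCL21, PLVAP and PECAM1 are known from vessel lining cells. CDKN1A, the p21 inhibitor of CDKs, stood at 1.04 and 1.78 CPM in cycling acinar cells, against 4.498 and 4.94 CPM in other acinar cells, and thinning turned it to a ratio of 0.31. Of the 5, 4 rested on at most 3 counts in a library, and 1 gene was lower without likely doublets.

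In the endocrine cells of library 3, 1266 of 10097 genes (12.5%) were higher and 728 (7.21%) were lower in the 111 cycling cells, and 393 of the lower ones rested on at most 3 counts there. Matched by leading hormone, a choice made after seeing the data, 1277 of 9988 genes (12.8%) were higher and 605 (6.06%) were lower in cycling cells. All 24 fork genes and all 15 licensing genes measured were higher, with medians of 3.03 and 3.08, against medians of 0.99 and 0.96 in acinar cells. UBE2C stood at 782 CPM in cycling endocrine cells and at 1.77 CPM in the others. This comparison rests on 1 library and has no replicate check.

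**Figure D4:**
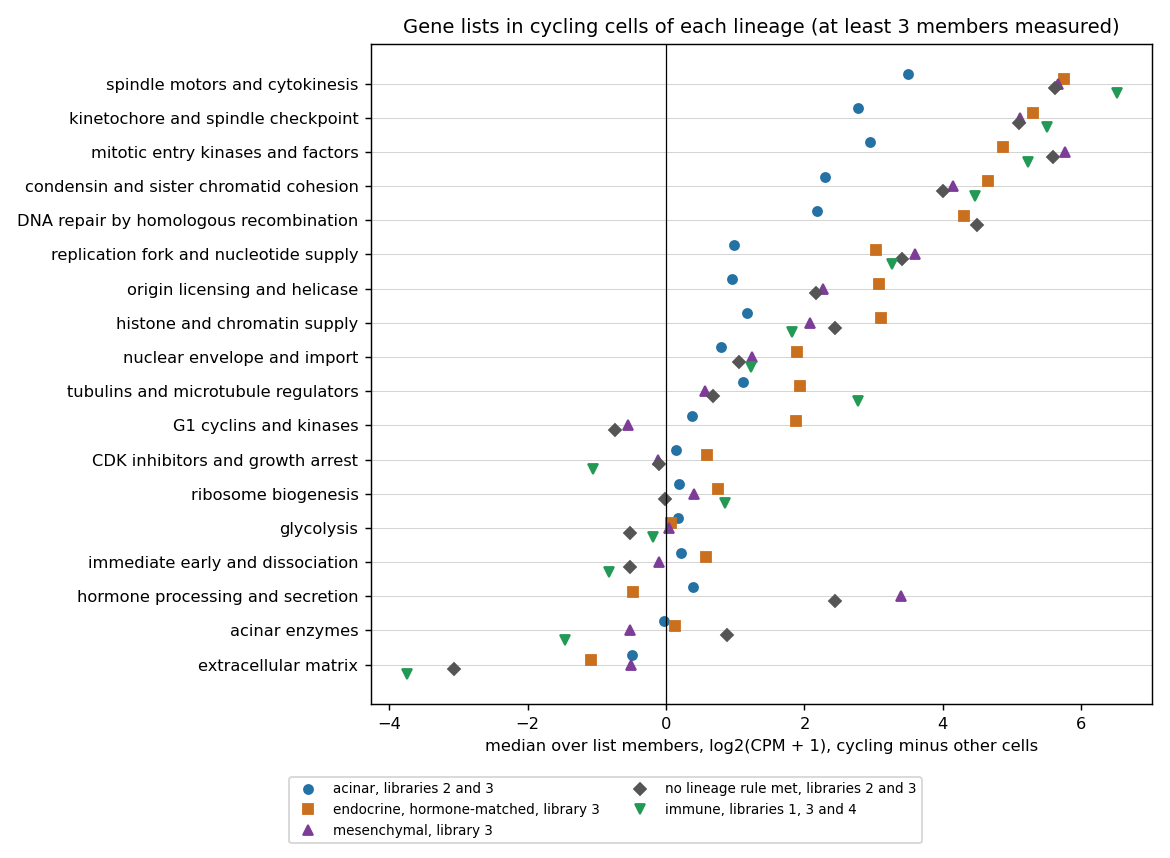
Median log2 ratio, cycling minus other cells, over the measured members of each gene list (y), for 5 lineages; lists with at least 3 measured members are shown. Acinar points lie left of the other lineages for every list of mitosis and replication, with 3.49 for spindle genes against 5.75 in endocrine cells, and acinar enzymes in acinar cells lie at -0.02.

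Hormone genes held a smaller share of the RNA in cycling endocrine cells. In library 3 INS made up a median of 28.1% of UMIs in the 31 cycling INS cells, against 39.2% in the 477 others. PPY made up 27.5% in cycling PPY cells and 35.9% in others, GCG 7.83% and 16.4%, and SST 5.63% and 16.4% with 6 cycling cells. The endocrine rule asks for 3% of UMIs from these genes, so the shares are a description. Counted per cell the picture differed by hormone. A cycling INS cell held a median of 2324 UMIs of INS, against 3035 in others, and a cycling GCG cell 957 UMIs of GCG, against 1452. A cycling PPY cell held 4162 UMIs of PPY, against 3448 in others, whereas in library 2 the 6 cycling PPY cells held 2034.5, against 3079.5. A cycling SST cell of library 3 held 365 UMIs of SST, against 832.5. UMIs of all other genes were higher in cycling INS, PPY and GCG cells of library 3, at 6733, 10757 and 13163 per cell. In the others they were 4703, 6345 and 7568. Depth helps a cell to meet the rule, so these counts per cell are a description. The part of depth in them was not tested.

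In INS cells of library 3, 606 of 5987 genes (10.1%) were higher and 1228 (20.5%) were lower in cycling cells. Over all 5987 genes the median log2 ratio was -0.34, so lower calls were common there. Centred on that median 801 genes were lower, and SLC2A2, G6PC2, PCSK2, PRLR and ST18 were no longer called while UCN3, DLK1, PEG3 and CCND2 were. Of 23 measured genes of hormone processing and secretion, 8 were lower and none was higher. SLC2A2, the glucose transporter GLUT2, stood at 79.3 CPM in cycling INS cells, against 202 CPM in others. UCN3, a peptide of mature beta cells in mice, stood at 22.2 CPM against 59.4 CPM. The cycling INS cells held 315436 UMIs in all, where 3 counts make 9.51 CPM, so UCN3 and DLK1 rest on few counts. G6PC2, an islet glucose phosphatase, stood at 34.9 CPM against 88.4 CPM, and PCSK2, a prohormone convertase, at 181 CPM against 388 CPM. INS itself was not called (-0.50), nor were PCSK1 (-0.59), ABCC8 (-0.01) and PAX6 (-0.16). Of 12 endocrine transcription factors 3 were lower, near the share of all genes, among them NKX6-1 (-1.68) and ST18 (-1.26), while NEUROD1 was higher at 111 CPM against 49.8 CPM. Of 13 growth receptors and imprinted genes 8 were lower. DLK1 stood at 19.02 CPM in cycling INS cells, against 354 CPM in others, PRLR, the prolactin receptor, at 216 CPM against 478 CPM, and PEG3 at 139 CPM against 374 CPM. CDK4, the kinase of G1, was higher at 159 CPM against 41.4 CPM, whereas its partner CCND2 was lower at 47.6 CPM against 133 CPM.

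GCG and PPY cells shared some of these differences. In GCG cells of library 3, 836 of 4055 genes (20.6%) were higher and 339 (8.36%) were lower in the 24 cycling cells. GCG (-1.21), the islet factor RFX6 (-1.33), PCSK2 (-1.02) and SCGN (-1.02) were lower. The digestive enzymes were higher in cycling GCG cells for 7 of 8 measured, with PRSS2 at 1074 CPM against 462 CPM. Without likely doublets, which left 18 cycling cells, PRSS2 turned to a log2 ratio of -0.23, CLPS, CTRC, PNLIPRP2 and SYCN turned below 0 as well, and PCSK2 was no longer called. Of 8 immediate early and dissociation genes 6 were higher in these cells (median 1.57), and the part of handling in the other values was not tested. In PPY cells 848 of 7099 genes (11.9%) were higher and 400 (5.63%) were lower in the 50 cycling cells. There 0 of 18 processing genes was called, and IRX2 was higher at 30.2 CPM against 10.7 CPM. PRLR was lower in all 3 classes, at 81.4 CPM against 343 CPM in GCG cells and 79.1 CPM against 175 CPM in PPY cells. CDK4 was higher in all 3, by 1.91 in INS, 1.83 in PPY and 1.92 in GCG cells. SST was lower in cycling GCG cells (21.1 CPM against 693 CPM) and PPY cells (11.6 CPM against 226 CPM). A difference between the classes was not tested.

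**Figure D5:**
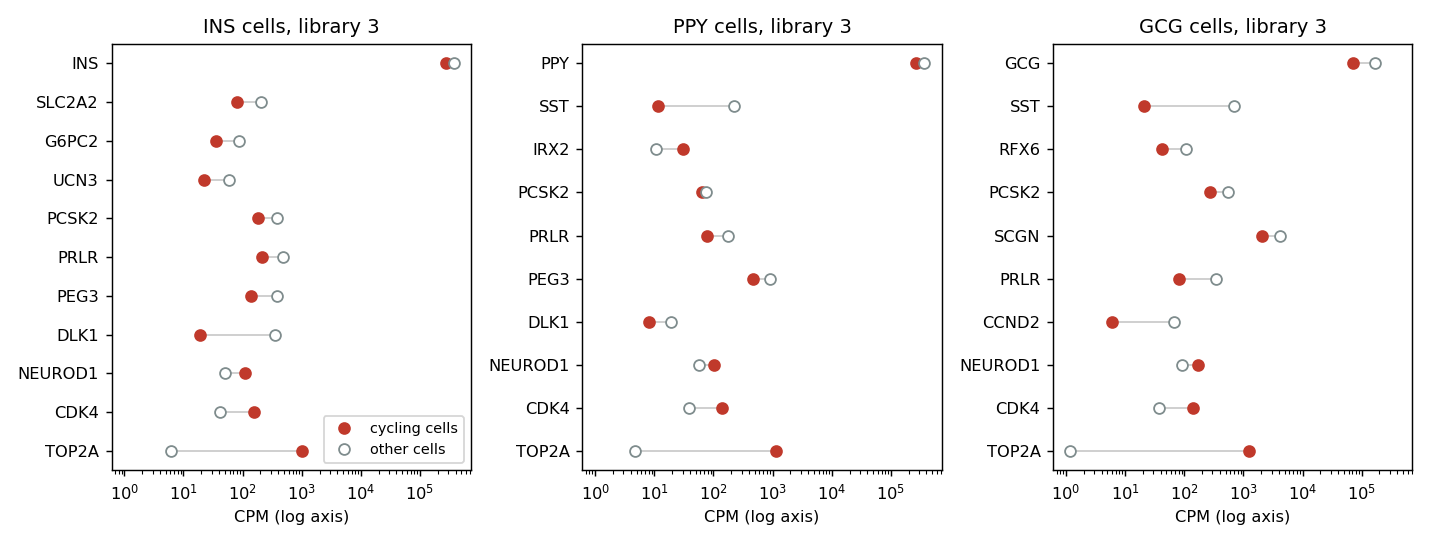
Level of selected genes in cycling (filled) and other (open) cells of library 3 led by INS, PPY or GCG, in CPM on a log axis; genes were chosen after their values were seen. DLK1 stands at 19.02 and 354 CPM in INS cells, PRLR lies to the left in cycling cells of all 3 classes, and TOP2A to the right.

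The immune members were not of 1 kind. In library 1, 7 of 16 carried at least 3 of 5 T and NK cell markers, and 8 held UMIs of CD3E, part of the T cell receptor complex. The plasma cell gene JCHAIN was seen in 5. Macrophage markers summed to 857 CPM in these cycling cells, against 6200.2 CPM in other immune cells of that library. In libraries 3 and 4, 14 of 19 and 10 of 14 carried at least 3 of 5 macrophage markers, at 5959 and 4078 CPM in all, against 7132 and 3386 CPM in other immune cells. Complement genes C1QA and C1QB, made by resident macrophages, were seen in 12 and 11 of the 19 cells of library 3. Neutrophil markers summed to 516 CPM in cycling immune cells of library 4, against 7498 CPM in the others. Over libraries 1, 3 and 4, admitted after seeing the data with at least 10 cycling cells each, 113 of 2228 genes (5.07%) were higher and 147 (6.6%) were lower. All 15 spindle genes measured were higher. The lowest named gene, VCAN, a proteoglycan of monocytes, was at 0, 352 and 0 CPM in cycling cells of libraries 1, 3 and 4, against 536, 1046 and 2242 CPM, and FCN1, a monocyte lectin, at 5.13, 247 and 0 CPM against 915, 1999 and 2006 CPM. In library 1 these lower genes go with the fewer macrophage markers, and in library 4 with the fewer neutrophil markers. The part of cell type in them was not tested.

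Cycling cells that met no lineage rule numbered 92, with 65 in library 3 and 21 in library 2. In library 3, 13 of the 65 were among the cells with the highest doublet scores, against 9 of 660 others. There 34 of 65 carried at least 3 of 7 duct markers, 13 carried 3 of 6 endothelial markers and 5 carried 3 macrophage markers. KRT19, a duct keratin, was seen in 35 of them. In library 2, 10 of 21 carried 3 duct markers, and 8 carried 3 of 4 alpha cell markers, which summed to 8183 CPM in cycling cells against 502 CPM in others. GCG alone summed to 5711 CPM over those 21 cells, below the 3% of UMIs that the endocrine rule asks. Against other cells that met no rule, 230 of 5088 genes (4.52%) were higher and 529 (10.4%) were lower, and 17 of 22 matrix genes were among the lower.

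Of the 25 mesenchymal members of library 3, 15 were among the 5% of cells with the highest doublet scores, against 34 of 1630 other mesenchymal cells. The 10 left are too few for the comparison, so the values here rest mostly on likely doublets. The 6 stromal markers summed to 39032 CPM in cycling cells, against 64537 CPM in other mesenchymal cells. PDGFRA, the gene of the rule, stood at 431 CPM in cycling cells, against 376 CPM in other mesenchymal cells, and none of 22 matrix genes was higher while 2 were lower. COL1A1, a fibrillar collagen, stood at 13304 CPM against 22774 CPM and was not called. Of 6582 genes, 348 (5.29%) were higher and 1679 (25.5%) were lower, and 89.4% of the lower ones rested on at most 3 counts in the cycling cells. Some members carried islet RNA: 8 of 10 hormone processing genes were higher, GCG stood at 1882 CPM against 60.3 CPM, and 629 CPM of the islet peptide gene CARTPT, against 3.17 CPM, came from 2 of the 25 cells. The part of this islet RNA in the other calls was not tested.

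The balance of late over early cycle genes was read last. UMIs of 73 mitosis genes outnumbered those of 43 replication genes 1.39 and 1.62 times in cycling acinar cells of libraries 2 and 3. The ratio was 3.92 and 2.56 in cycling endocrine cells, and 3.33, 2.58 and 2.79 in immune cells of libraries 1, 3 and 4. Within library 3 it was 3.14 in GCG, 2.56 in PPY and 1.92 in INS cells. Cells that met no rule gave 3.55 and 1.53 in libraries 2 and 3. With every cell thinned to 3500 UMIs, acinar members of library 3 gave 1.94 and INS members 1.86, so the order of these changed. In the other cells of these lineages, over the 4 libraries, the ratio lay between 0.221 and 0.965. The rule picks cells by genes of the later wave, so a higher ratio in cycling than in other cells is a description. Phases were not assigned to single cells.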

How the data were processed

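The authors deposited 1 matrix of whole UMI counts per gene and barcode, aggregated over 4 libraries and unfiltered. The file headers name Cell Ranger 5.0.1, whereas Seurat 3.1.1 and an older Cell Ranger, 3.1.0, are listed per the submitters' processing notes. For the genome build and annotation the sources used here give nothing. Libraries came from dissociated pancreas with 10x 3' version 3 chemistry, per the labels' protocols.

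From these counts, cells, members and lineages were set by the stated rules. UMIs were summed per class and library and scaled to CPM. Log2 ratios used a pseudocount of 1 CPM, 20 cells per class and a minimum of 20 counts on the higher side. In the comparison over all lineages, other cells were weighted by stratum (lineage, leading hormone or combination) to the UMIs of the cycling cells, using strata with at least 20 other cells. Doublets were scored with Scrublet in scanpy 1.11.5 and kept in the main values. Its automatic threshold marked 16 of the 688 members. The call rule was tested on simulated data.

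The count test planned for the ages was not run, because no library is tied to a sample, so no replicates exist and precision is given by exact intervals for counting error at 95%. The members, the 25 gene lists and the marker sets were chosen with earlier results of these data known. Of 403 list genes 390 were matched by symbol. Named genes were the 8 rule genes, up to 4 called members per list, and the 15 highest and 10 lowest called genes per comparison. Others, including those not called, were chosen after their values were seen. Alternatives changed the depth, the number of genes required, the UMI minimum, doublets, centring, pseudocount, count filter and reference cells, or left out 1 library. Sequences were not used here.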

Additional observations from a re-analysis of the deposited data

How the results depend on the processing

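No paired analysis was possible because library numbers are tied to no animal or age and no test across groups was run.

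Shares of cycling cells moved with the rule. In library 2, the share over all cells was 1.16% thinned, 2.10% with at least 4 genes required, 3.67% with 2 and 3.73% at a minimum of 5000 UMIs. Library 3 gave 6.75%, 9.43%, 14.1% and 12.9% in the same order, and 9.69% without likely doublets. Acinar shares were 2.07% thinned, 5.53% with 4 genes and 10.4% with 2 in library 2, and 12.5%, 23.04% and 36.0% in library 3. Mesenchymal cells of library 3 gave 3.02% with 2 genes and 0.623% without likely doublets, and immune cells of library 3 gave 29.5% at 5000 UMIs. Endocrine shares in libraries 2 and 3, and the totals of libraries 1 and 4, stayed within their counting intervals under each of these 5 alternatives.

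Thinning gave 245 higher and 271 lower genes over all lineages, 93 cycle list genes, 54 higher and 17 lower in acinar, 663 higher in endocrine, 120 higher and 2660 lower in mesenchymal cells, and 98 higher in cells with no lineage. A pseudocount of 10 CPM gave 220 and 15 over all lineages, 105 and 1 in acinar and 766 and 91 in endocrine cells, 237 lower in mesenchymal cells and 282 lower in cells with no lineage. Median centring gave 9 lower in acinar and 624 higher in mesenchymal cells. Without likely doublets, 138 genes were lower over all lineages and 1 in acinar cells. With libraries of at least 10 cycling cells, chosen after seeing the data, 132 genes were higher over all 4 libraries, 68 of them cycle list genes, and endocrine cells gave 260 higher and 397 lower in libraries 2 and 3.

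Leaving out library 2 or 3 gave 590 to 639 higher and 156 to 483 lower genes over all lineages and 150 to 162 cycle list genes. It gave 303 to 365 higher and 19 to 157 lower in acinar cells, and 658 to 672 higher and 820 to 2670 lower in cells with no lineage. The causes were not tested, except that fewer libraries must meet the rule when 1 is left out.

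In the hormone classes of library 3, thinning gave 233 higher genes in INS, 253 in PPY and 215 in GCG cells and 195 lower in GCG cells. A pseudocount of 10 CPM gave 297 lower in INS, 52 in PPY and 200 in GCG cells, and centring gave 801 lower in INS cells.

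Of 4731 values of named and listed genes under these alternatives 4014 kept their call and 704 kept only their direction, 447 of these when thinned. The other 13 reversed. Thinning gave 0.31 for CDKN1A in acinar cells, and 0.28 for ELN, 0.17 for IGF2 and 0.067 for ST18 in INS cells. CDKN1A gave -1.90 in endocrine cells of libraries 2 and 3. Without likely doublets GCG cells gave -0.45 for CLPS, -1.15 for CTRC, -0.52 for PNLIPRP2, -0.23 for PRSS2, -0.60 for SYCN, 0.19 for COL1A1, 0.20 for COL6A1 and 0.49 for IGF2.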
